A study of Drosophila melanogaster with 3 samples.

Results

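LPLC1 neurons are columnar visual projection neurons of the Drosophila optic lobe. They were taken here as all cells that the study's authors annotated as LPLC1 in its single-cell RNA-seq data, 1554 of 6003 annotated cells. There were 690 LPLC1 cells at 48 h, 646 at 72 h and 218 at 96 h after puparium formation (APF). The other 4449 cells, called the rest below, were LPLC2 neurons, LC4 neurons and a small class labelled X that the annotation left without a type. All cells were sorted by a nuclear GFP (UAS-His2A-GFP) from the F1 of a split-GAL4 driver line, which for LPLC1 combined R64G09-p65.AD with R37H04-GAL4.DBD, and males with the third chromosome of an inbred line from the Drosophila Genetic Reference Panel (DGRP). Each cross to 1 DGRP strain was a biological replicate, and each time point was 1 library on 1 lane. The LPLC1 crosses were to DGRP-399, 535, 555, 730, 799 and 805 at 48 h APF, with DGRP-320 in place of DGRP-555 at 72 and 96 h. The first 3 strains of each stage by number were staged in an earlier window and were on average slightly older than the last 3.

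LPLC1 cells send dendrites into the lobula and the lobula plate and an axon to an optic glomerulus of the central brain, where they contact descending neurons. Neurons of this kind are told apart during pupal life by combinations of transcription factors, and at these stages they choose synaptic partners with cell surface proteins of the immunoglobulin, leucine-rich-repeat and cadherin families. The Dpr and DIP proteins, and the Beat and Side proteins, are such families in which members of one family bind members of the other across the contact between cells.

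Each LPLC1 cross held 75 to 155 cells at 48 h, 74 to 154 at 72 h and 14 to 63 at 96 h APF. The UMIs (unique transcript molecules) of the cells of one type and cross were summed, which gave 1579238 to 3269397 UMIs per LPLC1 cross at 48 h, 1645875 to 3382024 at 72 h and 253805 to 1098655 at 96 h. The sums were therefore most shallow at 96 h, and at that stage the DGRP-805 cross rested on 14 cells. Levels are UMIs per 10000 UMIs of the sum (TP10K), as the mean ± SD over crosses. For the rest, a cross below means all its cells of 1 DGRP strain, pooled over the driver lines. LPLC2 made up 75.7% of the rest at 48 h, 57.7% at 72 h and 57.7% at 96 h. LC4 was absent from the DGRP-320 and DGRP-730 crosses at 72 and 96 h APF, so the level of the rest in those crosses came from LPLC2 and class X alone. Because of this unequal mix, LPLC1 was also set against LPLC2 and LC4 one by one. The driver line, its genetic background and the animals changed together with the cell type, and the lane changed with the stage, so these cannot be told apart. The share of LPLC1 cells with a UMI of the male-specific lncRNA:roX1 ran from 44.7% to 68.4% over crosses at 48 h, from 50% to 99.0% at 72 h and from 33.3% to 78.6% at 96 h, and the part of this sex mix in the results was not tested. The libraries shared 1 to 5 cell barcodes in each pair.

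The type labels came from clustering of these same counts. A difference between LPLC1 and another type is therefore given as levels, as a fold change on the log2 scale with its standard error (SE), and as a call, without a p-value. A gene was called where its adjusted p in edgeR's quasi-likelihood test was under 0.05 and its fold was at least 2, which used the spread between crosses as a filter on size. A gene was set apart in LPLC1 where it was called in the same direction against LPLC2 and against LC4.

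The annotation markers described LPLC1 as a combination and not as a single gene. Of the proposed LPLC1 markers br, tup, salm and salr, only tup was called higher in LPLC1 than in both LPLC2 and LC4. br (FBgn0283451, X:1575132-1664869 in the Release 6 assembly) encodes the ecdysone-responsive zinc-finger protein Broad. At 48 h APF its level in LPLC1 was 47.1 at the lowest, 48.2 at the median and 54.3 TP10K at the highest cross. The rest ran from 3.49 to 16.5 TP10K in the same library, so that the groups did not overlap, but the rest held 2 unlike types. LPLC2 had 0.269 ± 0.0325 TP10K of br and LC4 had 32.8 ± 2.55 TP10K (both n = 6). The difference between LPLC1 and LC4 was 0.51 ± 0.06 (log2, SE) at 48 h, 0.62 ± 0.08 at 72 h and 0.94 ± 0.11 at 96 h APF, under the 2-fold limit at each stage. LPLC1 held 40.6 ± 3.44 TP10K of br at 72 h and 48.0 ± 6.58 TP10K at 96 h APF (n = 6). At 72 h the call of br against the rest was lost when class X was left out of the rest (2.86, log2).

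tup (FBgn0003896, 2L:18859507-18881261), the LIM-homeodomain gene tailup, was low but separated LPLC1 from both other types. Its level in LPLC1 was 1.91, 2.05 and 2.16 TP10K at the lowest, median and highest cross at 48 h APF. LC4 had 0.507 ± 0.0715 TP10K and LPLC2 had 0.0111 ± 0.00398 TP10K at that stage (n = 6). The LPLC1 crosses stayed above every cross of the rest at all 3 stages, with 1.18 ± 0.114 TP10K at 72 h and 2.07 ± 0.209 TP10K at 96 h APF. Against LC4 the difference was 1.88 ± 0.08 at 48 h, 1.38 ± 0.11 at 72 h and 2.01 ± 0.14 at 96 h (log2, SE).

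The spalt genes salm and salr, which encode related zinc-finger proteins, did not separate LPLC1 from LPLC2. At 48 h APF salm was at 3.48 ± 0.499 TP10K in LPLC1, 3.34 ± 0.355 TP10K in LPLC2 and 0.0608 ± 0.0647 TP10K in LC4 (n = 6). The difference between LPLC1 and LPLC2 was 0.01 ± 0.10 for salm and 0.14 ± 0.10 for salr at that stage, and it was at most 0.37 (log2) for both at 72 and 96 h APF. Both genes set LPLC1 and LPLC2 apart from LC4, by 6.07 ± 0.19 and 6.35 ± 0.18 at 48 h. Lim1 and Sox102F, which the annotation also used, were present in LPLC1 too. Lim1, a LIM-homeodomain gene, was at 4.0 ± 0.25 TP10K in LPLC1 against 9.19 ± 0.588 in LPLC2 at 48 h, and at 6.63 ± 0.717 against 7.34 ± 0.31 TP10K at 96 h APF. Sox102F was at 4.06 ± 0.351 TP10K in LPLC1 and 7.64 ± 0.451 in LPLC2 at 48 h, and at 5.21 ± 0.305 and 6.94 ± 0.28 TP10K at 96 h. The LC4 markers kn (0.0279 ± 0.00882 TP10K in LPLC1 and 11.5 ± 2.41 TP10K in LC4 at 48 h), lov and Lim3 reached at most 0.0665 TP10K in any LPLC1 cross. fkh and acj6, a forkhead and a POU-domain gene, were present in LPLC1, LPLC2 and LC4 and were called in no comparison of LPLC1 at any stage.

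**Figure D1:**
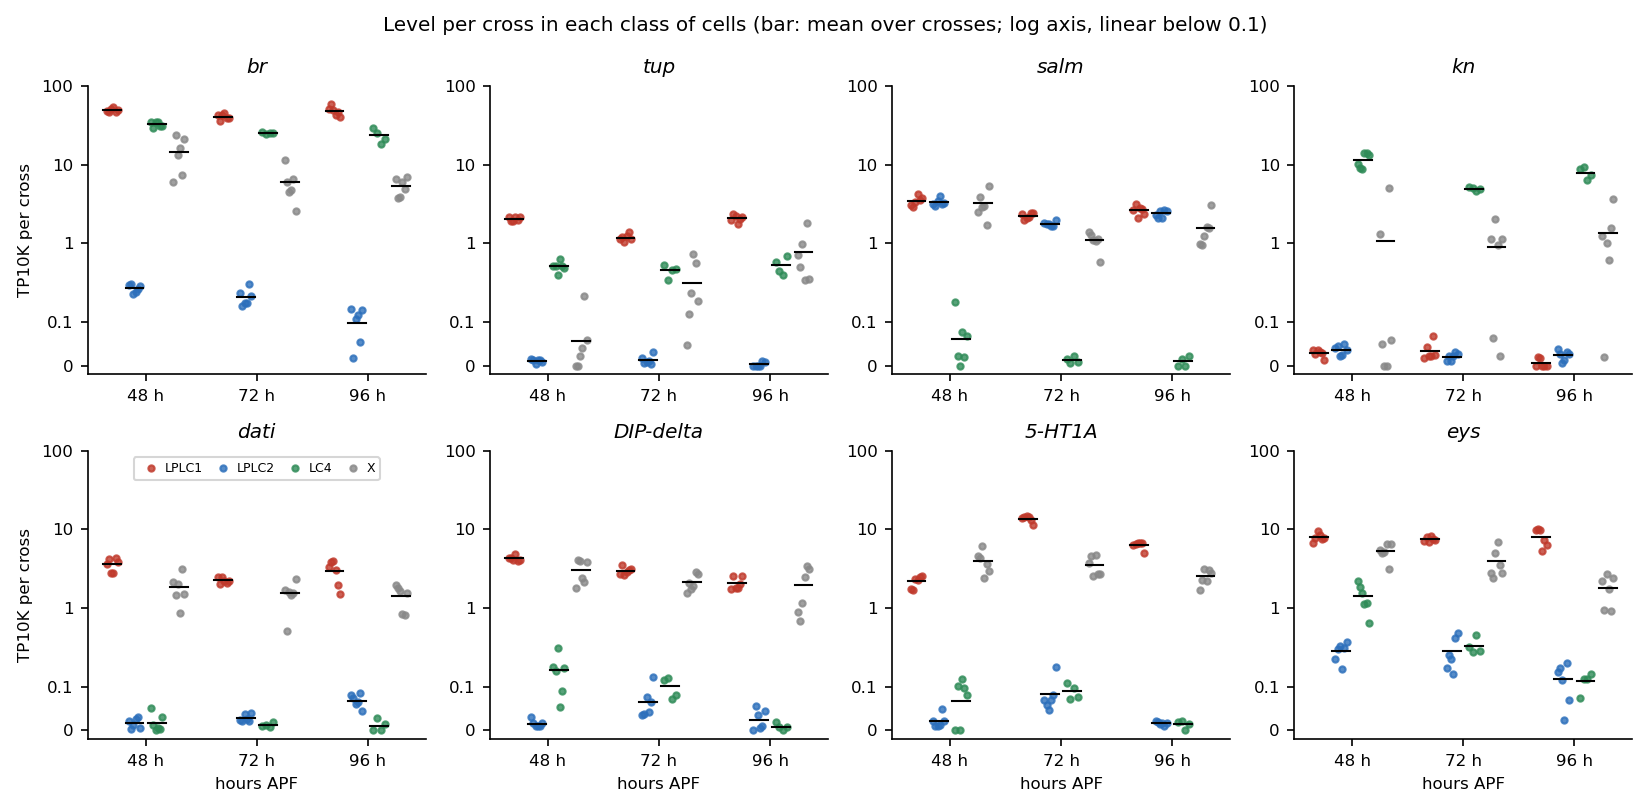
Level per cross (vertical axis, TP10K, log scale with a linear part below 0.1) of 8 genes at 48, 72 and 96 h APF (horizontal axis) in LPLC1, LPLC2, LC4 and class X; points are crosses and bars are means. At every stage all LPLC1 crosses sit above all LPLC2 and LC4 crosses for tup, dati, DIP-delta, 5-HT1A and eys, while salm is shared with LPLC2, kn is near 0 in LPLC1, and class X reaches the LPLC1 range for several genes.

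LPLC1 carried the signs of cholinergic neurons. VAChT, the vesicular acetylcholine transporter, stood at 3.35 ± 0.745, 8.88 ± 1.42 and 12.2 ± 1.49 TP10K in LPLC1 at 48, 72 and 96 h APF, and at 3.41 ± 0.258, 9.15 ± 2.39 and 11.8 ± 1.90 TP10K in the rest (n = 6). VGlut and Gad1, the vesicular glutamate transporter and the GABA-synthesizing enzyme, stayed at a mean of 0.0455 TP10K or less in LPLC1. The 4 neuronal markers were called in neither direction at any stage. The summed level of 6 glial markers ran from 0 to 0.0857 TP10K over all LPLC1 crosses, that of 4 photoreceptor markers from 0.004 to 0.114, that of 4 haemocyte markers from 0 to 0.00518, that of 2 fat body markers from 0 to 0.004, that of 3 muscle markers from 0 to 0.0201 and that of 5 dividing cell markers from 0 to 0.114. Photoreceptor markers reached 23.0 TP10K in a sum of class X at 96 h APF, and with them the rest reached 5.23 TP10K in 1 cross. Of 15 stress genes tested none was called at 48 and 72 h in this edgeR fit, and of 14 at 96 h Gadd45 was lower, at 0.0466 ± 0.0285 TP10K in LPLC1 and 0.122 ± 0.0327 TP10K in the rest.

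At 48 h APF, 214 of 6727 genes (3.18%) were called higher and 347 (5.16%) lower in LPLC1 than in the rest. At 72 h the counts were 223 (3.42%) and 346 (5.31%) of 6513 genes, and at 96 h they were 166 (2.94%) and 279 (4.95%) of 5638. More genes were called lower than higher at each stage in these fits. Set apart from both LPLC2 and LC4 were 109 higher (1.7%) and 109 lower genes (1.7%) of 6398 at 48 h, 165 higher (2.5%) and 105 lower (1.59%) of 6589 at 72 h, and 121 higher (2.14%) and 84 lower (1.48%) of 5663 at 96 h APF. Of the genes called higher against the rest, 105 of 214, 147 of 223 and 103 of 166 were set apart from both types at the 3 stages. Of those called lower, 105 of 347, 95 of 346 and 72 of 279 were set apart, a smaller share than among the higher genes. The genes changed with the stage. Of the 109 higher genes at 48 h, 50 were set apart in the same direction at 72 h (45.9% of the 48 h genes and 30.3% of the 72 h genes), and 71 genes were shared between 72 and 96 h (43.0% and 58.7%). Across all stages, 34 of 270 higher genes and 25 of 208 lower genes were set apart 3 times. Genes on the X chromosome were 16.5%, 21.2% and 20.7% of the higher and 11%, 13.3% and 13.1% of the lower set-apart genes, beside 18%, 18.1% and 18% of the genes tested. Non-coding RNA genes were 7.34%, 9.70% and 4.13% of the higher genes, 7.34%, 6.67% and 9.52% of the lower genes, and 2.35%, 2.72% and 1.93% of those tested.

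**Figure D2:**
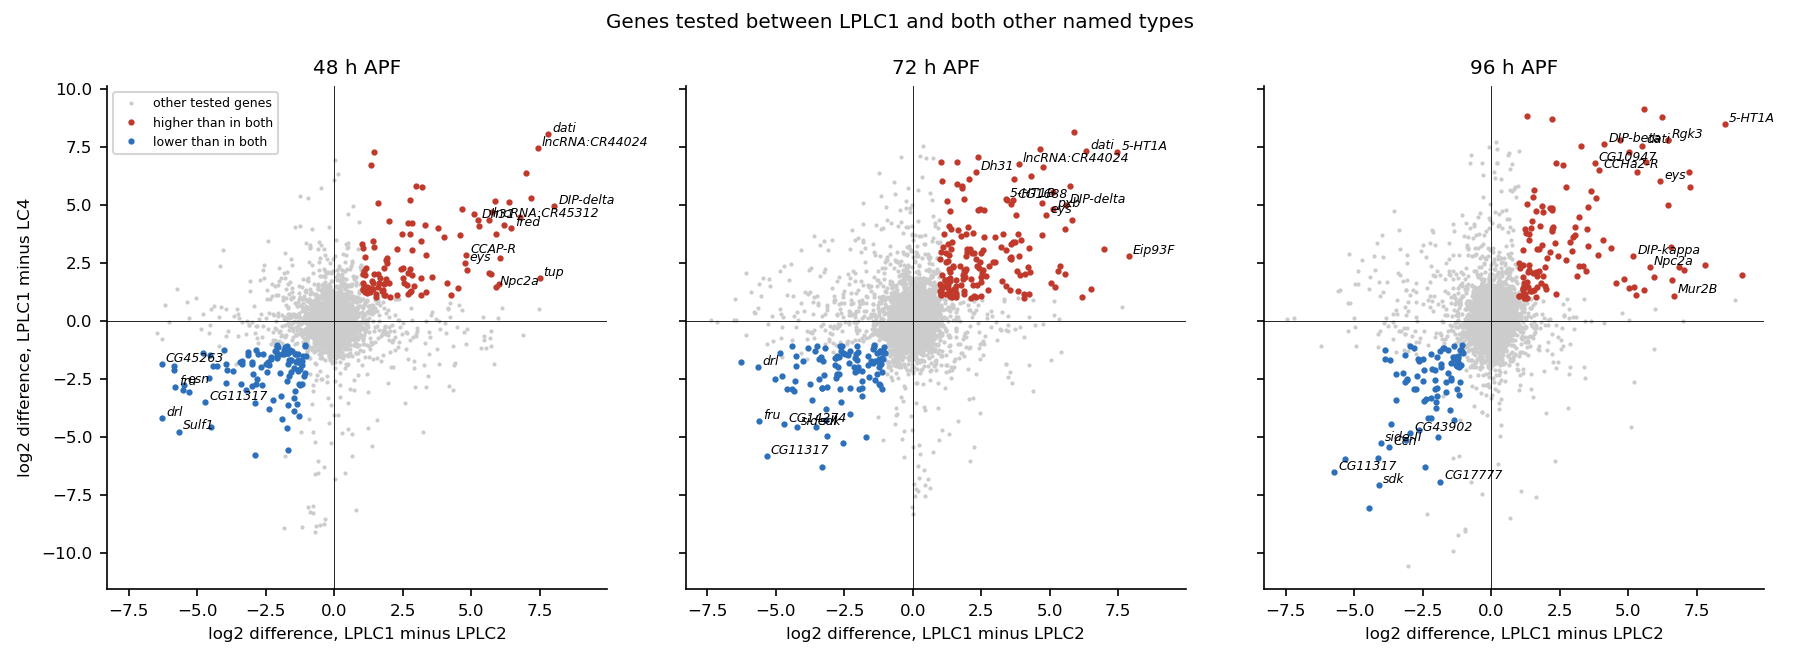
Difference of LPLC1 from LPLC2 (horizontal axis, log2) and from LC4 (vertical axis, log2) for each gene tested at 48, 72 and 96 h APF; red points are the genes set apart as higher than in both types, blue points those set apart as lower, and the names are those of genes chosen by the naming rule. The upper right corner of each panel holds the 109, 165 and 121 higher genes and the lower left corner the 109, 105 and 84 lower genes.

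Among transcription factor genes, more were called lower than higher in LPLC1 against the rest, but about as many lay above both other types as below both. Of 50 factors tested at 48 h APF, 6 were called higher and 17 lower than in the rest, beside 3.18% and 5.16% of all genes, with a median difference of -0.43 (log2) beside 0.01 for all genes. At 72 h the counts were 7 and 15 of 48, beside 3.42% and 5.31% of all genes. At 96 h they were 5 and 16 of 45, beside 2.94% and 4.95%. Set apart from both LPLC2 and LC4 were 5 higher and 4 lower at 48 h, and 4 and 4 at 72 and at 96 h. Of all genes, 1.7%, 2.5% and 2.14% were set apart as higher and 1.7%, 1.59% and 1.48% as lower. The factors low against the rest included ct and ap, which were near 0 in LPLC1 and LPLC2 and high in LC4: ct was at 0.0421 ± 0.0178 TP10K in LPLC1, 0.0676 ± 0.0209 in LPLC2 and 21.7 ± 1.92 TP10K in LC4 at 48 h. bab2, a BTB-domain factor, was low against both types at all stages, with 0.104 ± 0.0429 TP10K in LPLC1 beside 2.45 ± 0.217 in LPLC2 and 0.561 ± 0.171 TP10K in LC4 at 48 h.

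dati (FBgn0262636, 4:375640-395605), a zinc-finger gene outside that list, led the genes set apart at 48 h APF with a level of at least 1 TP10K. Its level in LPLC1 was 2.79, 3.77 and 4.28 TP10K at the lowest, median and highest cross at 48 h, 2.02, 2.22 and 2.50 TP10K at 72 h, and 1.5, 3.21 and 3.95 TP10K at 96 h. No cross of the rest passed 0.494 TP10K at any stage, so the groups were far apart. LPLC2 stayed at a mean of 0.0679 TP10K or less and LC4 at 0.017 TP10K or less, while class X had 1.86 ± 0.79, 1.54 ± 0.591 and 1.44 ± 0.488 TP10K. The difference from the rest was 5.14 ± 0.32, 4.25 ± 0.23 and 3.48 ± 0.14 (log2, SE), higher in 6 of 6 crosses at each stage.

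Eip93F, jim and slou were, like tup, set apart at all 3 stages. Eip93F, an ecdysone-induced helix-turn-helix factor, had 4.27 ± 0.916, 5.73 ± 0.395 and 4.4 ± 0.35 TP10K in LPLC1, at most 0.0625 TP10K in LPLC2 and 0.789 to 1.33 TP10K in LC4. Class X exceeded LPLC1 in Eip93F at 48 h, with 11.1 ± 5.0 TP10K. The zinc-finger gene jim was abundant, at 122 ± 13.5, 52.6 ± 10.6 and 48.1 ± 2.08 TP10K in LPLC1 beside 33.4 ± 1.45, 14.2 ± 2.16 and 20.2 ± 2.69 TP10K in the rest. slou, an NK-type homeobox gene, stood at 1.01 ± 0.188 TP10K in LPLC1 beside 0.354 ± 0.0866 in LPLC2 and 0.00444 ± 0.00459 TP10K in LC4 at 48 h. fru, the sex-determination factor fruitless, lay at the other end, with 0.0428 ± 0.0244 TP10K in LPLC1 and 1.70 ± 0.793 TP10K in the rest at 48 h. fru stayed below the rest in every cross at 72 and 96 h, by -5.45 ± 0.40 and -3.51 ± 0.21 (log2, SE).

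In the DIP family, LPLC1 expressed DIP-delta and DIP-kappa and, from 72 h APF, DIP-beta. At the 3 stages 3.18%, 3.42% and 2.94% of all genes were called higher and 5.16%, 5.31% and 4.95% lower than in the rest. Of 9 DIP genes tested at 48 h, 2 were called higher and 3 lower than in the rest. At 72 h 3 of 10 were higher and 6 lower, and at 96 h 3 of 9 were higher and 6 lower. The family medians against the rest were -0.90, -1.90 and -3.26 (log2) beside 0.01, -0.02 and -0.003 for all genes. Against both LPLC2 and LC4, 1, 3 and 3 DIP genes were set apart as higher and 1, 1 and 0 as lower. Of all genes, 1.7%, 2.5% and 2.14% were set apart as higher and 1.7%, 1.59% and 1.48% as lower. DIP-delta (FBgn0085420, 3L:5424109-5442399), whose protein binds Dpr12, was the DIP gene set apart at all 3 stages. Its LPLC1 crosses held 3.99, 4.25 and 4.94 TP10K (lowest, median, highest) at 48 h, 2.63, 2.94 and 3.51 at 72 h and 1.72, 1.92 and 2.56 TP10K at 96 h. The highest cross of the rest stood at 0.377, 0.283 and 0.543 TP10K, below every LPLC1 cross. The difference from the rest was 4.60 ± 0.23, 3.88 ± 0.14 and 2.90 ± 0.27 (log2, SE).

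DIP-kappa was shared with LC4 at first. At 48 h APF it stood at 3.41 ± 0.895 TP10K in LPLC1 and 5.18 ± 1.23 TP10K in LC4, and the LPLC1 crosses (1.96 to 4.34 TP10K) overlapped those of the rest (0.35 to 3.42 TP10K). LC4 then had 0.938 ± 0.175 and 0.351 ± 0.132 TP10K at 72 and 96 h, where LPLC1 had 3.85 ± 0.897 and 2.63 ± 1.36 TP10K. The difference from LC4 was thus -0.72 ± 0.15, 2.04 ± 0.13 and 2.80 ± 0.31 (log2, SE), and the gene was set apart from 72 h on. The call of DIP-kappa against the rest at 48 h was lost without DGRP-399, DGRP-535 or DGRP-805 (difference 1.22 to 1.58), without the strain block (1.21), and with the types of the rest weighted equally (0.73). DIP-eta, which LPLC2 expressed, was almost absent, at 0.0685 ± 0.0252 TP10K in LPLC1 beside 5.36 ± 0.58 in LPLC2 and 0.126 ± 0.0655 TP10K in LC4 at 48 h.

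The dpr genes called differed between stages, and dpr8 alone was called higher at all 3. Of 21 dpr genes tested at each stage, 3, 3 and 4 were higher and 3, 1 and 2 lower, beside 3.18%, 3.42% and 2.94% of all genes higher and 5.16%, 5.31% and 4.95% lower, with medians of 0.15, 0.63 and 0.29 (log2). dpr8 was at 5.27 ± 0.757, 8.77 ± 0.835 and 2.39 ± 0.186 TP10K in LPLC1 beside 1.48 ± 0.422, 3.19 ± 0.69 and 1.22 ± 0.372 TP10K in the rest, and the crosses did not overlap at any stage. dpr1 took the opposite course. It was at 7.35 ± 0.238 TP10K in LPLC1 and 8.62 ± 3.41 TP10K in the rest at 48 h, and at 0.760 ± 0.0811 and 5.08 ± 0.514 TP10K at 96 h APF, where the difference was -2.66 ± 0.09 (log2, SE). Of the genes reported to vary among LPLC1 cells, dpr3 was called at no stage against the rest and dpr17 only at 96 h, at the 2-fold limit (1.0 ± 0.14). The call of dpr17 was lost in 9 of the alternative settings. CG33543, another immunoglobulin-family gene, was at 8.91 ± 1.35, 4.66 ± 0.475 and 2.35 ± 0.608 TP10K in LPLC1, near 0 in LPLC2 and at 12.6 ± 0.484, 4.41 ± 0.757 and 2.38 ± 0.393 TP10K in LC4. It was thus shared with LC4, and its call against the rest at 72 h was lost without DGRP-399, DGRP-535, DGRP-730 or class X (1.45 to 2.06, log2).

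Among the beat genes, beat-IIIb was called higher and beat-IIIc lower than in the rest at all stages, although both belong to one subfamily. beat-IIIb stood at 7.26 ± 1.28, 10.2 ± 0.326 and 10.9 ± 0.889 TP10K in LPLC1 and at 0.427 ± 0.116, 0.762 ± 0.132 and 0.185 ± 0.0471 TP10K in LPLC2. LC4 held 6.92 ± 0.392 TP10K of beat-IIIb at 48 h (difference of LPLC1 from LC4 -0.05 ± 0.11, log2, SE), and 2.32 ± 0.149 and 2.72 ± 0.534 TP10K at 72 and 96 h, where the gene was set apart from both types. beat-IIIc stood at 6.37 ± 0.961, 8.59 ± 0.674 and 10.1 ± 1.54 TP10K in LPLC1, at 62.8 ± 5.64, 57.2 ± 2.22 and 73.9 ± 2.84 TP10K in LPLC2 and at 21.7 ± 2.40, 32.4 ± 1.59 and 21.4 ± 2.05 TP10K in LC4. Every LPLC1 cross was below every cross of the rest for beat-IIIc at each stage. Of 13 beat genes tested, 5, 5 and 1 were called higher and 1, 1 and 5 lower against the rest at the 3 stages. Their medians were -0.09, 0.84 and 0.005 (log2). The shares of all genes called were 3.18%, 3.42% and 2.94% higher and 5.16%, 5.31% and 4.95% lower. Set apart from both types were 1, 3 and 2 beat genes as higher and 1 as lower at each stage. The shares of all genes set apart were 1.7%, 2.5% and 2.14% as higher and 1.7%, 1.59% and 1.48% as lower. side, whose protein is a partner of Beat-Ia, was high in LPLC1 and LC4, at 23.2 ± 2.59 and 29.7 ± 4.83 TP10K at 48 h, and low in LPLC2, at 0.429 ± 0.225 TP10K. Of 8 side genes, 4, 4 and 3 were called lower at the 3 stages and side was the one called higher. side-II was set apart at all stages, at 0.0619 ± 0.066 TP10K in LPLC1 and 1.16 ± 0.451 TP10K in the rest at 48 h, and at 0.0798 ± 0.0822 and 1.63 ± 0.248 TP10K at 96 h.

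Among the other immunoglobulin genes, 5, 7 and 5 of 35, 35 and 33 tested were higher and 8, 4 and 6 lower. For all genes the shares were 3.18%, 3.42% and 2.94% higher and 5.16%, 5.31% and 4.95% lower. sdk, encoding the adhesion protein Sidekick, was low against both types at all stages. Its LPLC1 crosses held 0.506, 0.838 and 1.23 TP10K (lowest, median, highest) at 48 h, 0.0608, 0.118 and 0.15 at 72 h and 0, 0.0285 and 0.0546 TP10K at 96 h APF. The lowest cross of the rest was at 4.53, 1.0 and 0.296 TP10K, so no cross overlapped. The difference from the rest went from -2.60 ± 0.15 to -3.89 ± 0.16 and -5.52 ± 0.35 (log2, SE). Fas3, encoding the homophilic adhesion protein Fasciclin 3, was set apart at 48 and 96 h, with 14.4 ± 2.45 TP10K in LPLC1 beside 2.83 ± 0.396 in LPLC2 and 6.15 ± 0.955 TP10K in LC4 at 48 h. The Netrin receptor gene fra and the Dscam paralog Dscam3 were called higher than in the rest at 72 h and were set apart from both types at 96 h. LPLC1 then held 2.47 ± 0.391 and 3.43 ± 0.305 TP10K beside 0.699 ± 0.177 and 1.01 ± 0.123 TP10K in the rest.

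Leucine-rich-repeat and guidance genes added to the profile. rdo, a leucine-rich-repeat gene, was set apart at all stages, with 6.0 ± 1.45, 13.8 ± 0.877 and 6.91 ± 1.08 TP10K in LPLC1 beside 0.972 ± 0.207, 2.41 ± 0.326 and 0.905 ± 0.206 TP10K in the rest. Ten-a, which encodes a teneurin involved in synaptic partner matching, was at 24.3 ± 2.21, 28.1 ± 1.53 and 30.7 ± 2.09 TP10K in LPLC1 while the rest had 13.6 ± 1.68, 7.42 ± 0.767 and 8.01 ± 2.05 TP10K. No LPLC1 cross overlapped the rest for either gene. drl, encoding the Wnt5 receptor Derailed, lay farthest below the rest at 48 h among the lower genes that the naming rule took from those set apart. It held 0.0728 ± 0.052 TP10K in LPLC1, 5.46 ± 0.697 in LPLC2 and 1.21 ± 0.222 TP10K in LC4, a difference from the rest of -5.88 ± 0.21 (log2, SE). Of 36, 36 and 30 guidance genes tested, 5, 4 and 2 were higher and 4, 5 and 2 lower at the 3 stages. Of 23, 23 and 22 leucine-rich-repeat genes, 3, 4 and 5 were higher and 7, 4 and 3 lower, and 2, 3 and 4 were set apart as higher and 3, 1 and 0 as lower. Over all genes 3.18%, 3.42% and 2.94% were higher and 5.16%, 5.31% and 4.95% lower. Of 9, 9 and 6 cadherin genes tested, 2, 1 and 1 were higher and 1 lower at each stage. At 48 h stan and CadN2 were higher, and Cad87A, the one called lower, was set apart at all stages (0.505 ± 0.0765, 0.0376 ± 0.0153 and 0.0132 ± 0.0206 TP10K in LPLC1).

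**Figure D3:**
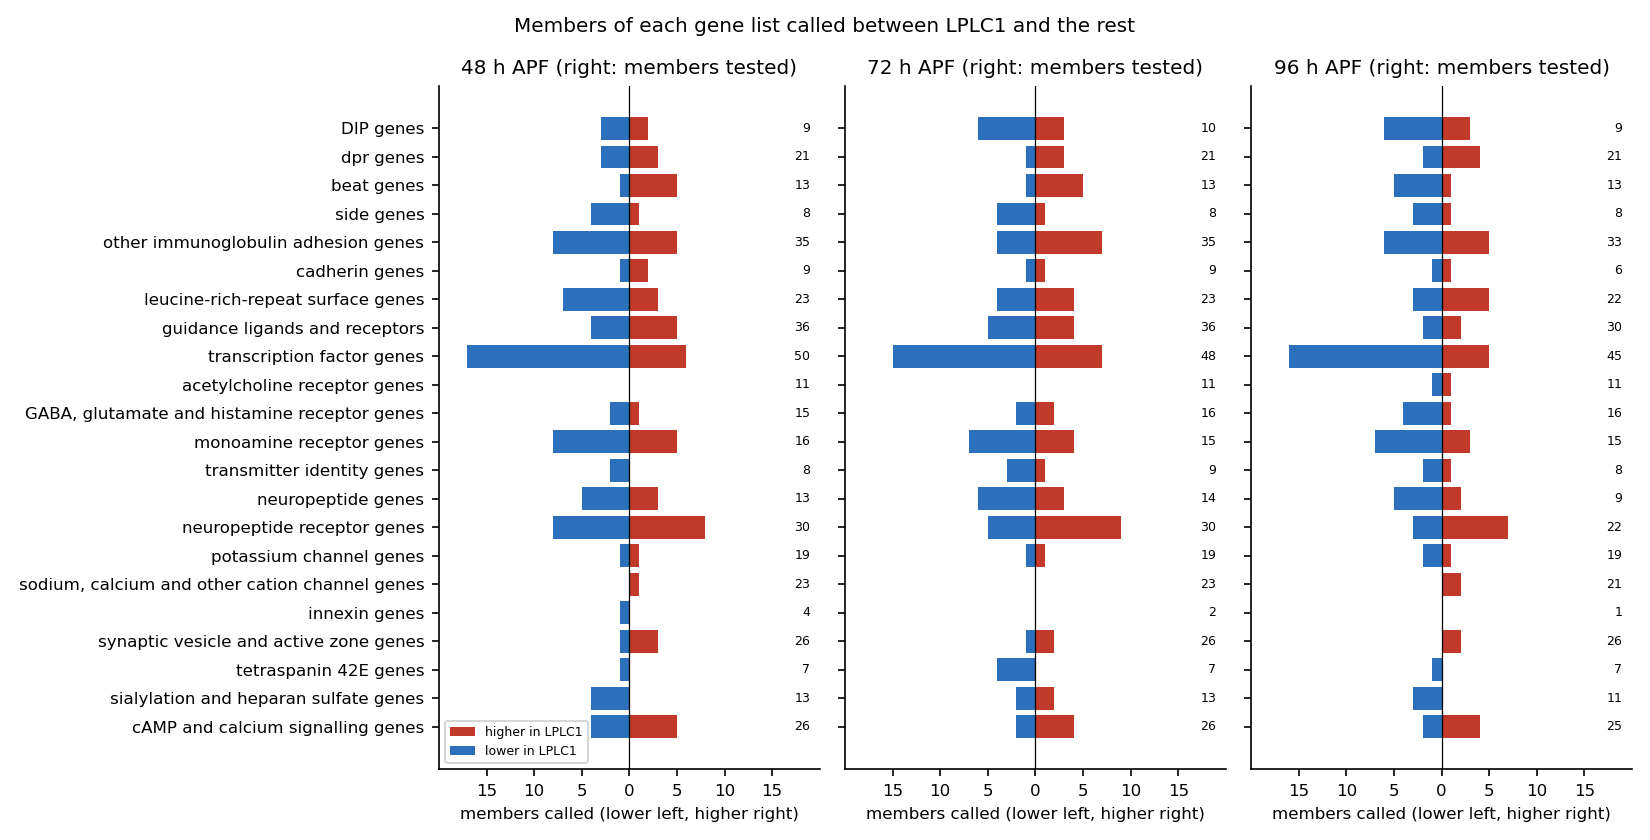
Counts of genes called higher and lower in LPLC1 than in the rest for each gene list (vertical axis) at 48, 72 and 96 h APF (horizontal axis, number of genes; lower to the left of 0, higher to the right); the number at the right of each panel is that of the genes tested. More transcription factor genes were called lower than higher, 17 beside 6 of 50 at 48 h, where 27 were not called. Of all genes, 5.16% were called lower and 3.18% higher at 48 h. Set apart from both LPLC2 and LC4 at 48 h were 5 higher and 4 lower factors, beside 1.7% of all genes in each direction. Neither ion channel list had more than 3 calls at a stage.

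Receptor genes for amines and peptides were called in both directions. Of 16 monoamine receptor genes tested at 48 h APF, 5 were called higher and 8 lower than in the rest. Of 15 at 72 h the counts were 4 and 7, and of 15 at 96 h 3 and 7. Over all genes the shares were 3.18%, 3.42% and 2.94% higher and 5.16%, 5.31% and 4.95% lower. Against both LPLC2 and LC4, 5, 4 and 5 of the list were set apart as higher and 1, 0 and 0 as lower. Of all genes, 1.7%, 2.5% and 2.14% were set apart as higher and 1.7%, 1.59% and 1.48% as lower. 5-HT1A (FBgn0004168, 2R:19067155-19121958), a serotonin receptor that couples to inhibitory G proteins, led the genes set apart at 72 h. The LPLC1 crosses held 1.68, 2.32 and 2.57 TP10K (lowest, median, highest) at 48 h, 11.4, 14.2 and 14.9 at 72 h and 5.0, 6.60 and 6.79 TP10K at 96 h. The highest cross of the rest was at 0.551, 0.675 and 0.717 TP10K, and LPLC2 and LC4 each stayed under a mean of 0.1 TP10K. The difference from the rest was 3.28 ± 0.28, 5.56 ± 0.23 and 3.99 ± 0.19 (log2, SE). Class X held 4.03 ± 1.32 TP10K at 48 h, more than LPLC1.

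5-HT1B, another receptor of the same kind, stood at 1.20 ± 0.144, 2.86 ± 0.197 and 3.07 ± 0.469 TP10K in LPLC1 beside 0.190 ± 0.0558, 0.237 ± 0.0969 and 0.491 ± 0.112 TP10K in the rest. The octopamine and tyramine receptor gene Oct-TyrR stood at 1.52 ± 0.29, 1.54 ± 0.0414 and 2.31 ± 0.378 TP10K, and the D2-like dopamine receptor gene Dop2R at 1.38 ± 0.525, 3.40 ± 0.448 and 6.10 ± 0.779 TP10K. All 3 were set apart from LPLC2 and LC4 at each stage, but Dop2R was not called against the rest at 96 h (0.80 ± 0.20), where class X held 17.8 ± 1.23 TP10K. Octalpha2R was low in LPLC1 against LPLC2 alone, at 1.61 ± 0.598 TP10K beside 31.6 ± 4.65 in LPLC2 and 1.02 ± 0.25 TP10K in LC4 at 48 h.

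Of 30 peptide receptor genes tested at 48 h, 8 were called higher and 8 lower than in the rest. Of 30 at 72 h the counts were 9 and 5, and of 22 at 96 h 7 and 3. For all genes, 3.18%, 3.42% and 2.94% were called higher and 5.16%, 5.31% and 4.95% lower. Set apart above both LPLC2 and LC4 were 8, 9 and 7 of the list, beside 1.7%, 2.5% and 2.14% of all genes, and set apart below both were 4, 0 and 1, beside 1.7%, 1.59% and 1.48%. CCAP-R, the receptor for crustacean cardioactive peptide, was at 1.59 ± 0.303, 0.636 ± 0.142 and 1.28 ± 0.383 TP10K in LPLC1, with the rest at a mean of 0.211 TP10K or less. CCHa2-R was at 1.04 ± 0.144, 1.01 ± 0.23 and 1.13 ± 0.362 TP10K, and its difference from the rest was 2.45 ± 0.14, 2.01 ± 0.18 and 3.80 ± 0.24 (log2, SE). The short neuropeptide F receptor gene sNPF-R was set apart at all stages, although class X held more of it at 48 and 72 h, 1.35 ± 0.383 and 2.33 ± 0.935 TP10K beside 0.886 ± 0.159 and 0.394 ± 0.0419 TP10K in LPLC1. Pdfr, the receptor for pigment-dispersing factor, was set apart at 72 and 96 h, with 0.543 ± 0.0765 and 1.09 ± 0.257 TP10K in LPLC1.

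The peptide gene Dh31, encoding diuretic hormone 31, was uneven among LPLC1 crosses. At 48 h APF the crosses held 5.12 (DGRP-399), 14.5 (DGRP-535), 15 (DGRP-555), 1.99 (DGRP-730), 1.60 (DGRP-799) and 1.44 TP10K (DGRP-805). The 3 older crosses were thus all above the 3 younger, and even the lowest was above the highest cross of the rest (0.408 TP10K). At 72 h LPLC1 held 15.7 ± 2.04 TP10K and the rest 2.02 ± 0.958, and at 96 h they held 5.10 ± 1.97 and 1.68 ± 0.926 TP10K, with overlap. The difference from the rest was 4.57 ± 0.55, 3.15 ± 0.27 and 1.73 ± 0.28 (log2, SE). Dh44 and Pdf were called higher at 48 h too, at 0.992 ± 0.129 and 0.665 ± 0.151 TP10K in LPLC1, and at 72 h. At 96 h neither was called, and Pdf was at 0 in the median LPLC1 cross. Of 13 peptide genes tested at 48 h, these 3 were higher and 5 lower, among them AstA, which class X held at 12.8 ± 20.9 TP10K. At 72 h 3 of 14 were higher and 6 lower, and at 96 h 2 of 9 were higher and 5 lower. Beside them, 3.18%, 3.42% and 2.94% of all genes were higher and 5.16%, 5.31% and 4.95% lower at the 3 stages.

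Several secreted proteins and signalling enzymes were set apart from both types at all stages. eys (FBgn0031414, 2L:2311680-2358944), which encodes the extracellular protein Eyes shut known from the photoreceptor lumen, held 6.76, 7.79 and 9.45 TP10K in LPLC1 at 48 h (lowest, median, highest), 6.94, 7.46 and 8.35 at 72 h and 5.25, 8.49 and 10.2 TP10K at 96 h. The rest had at most 1.02 TP10K in any cross. The difference was 3.40 ± 0.11, 3.87 ± 0.18 and 4.43 ± 0.19 (log2, SE). Npc2a, for a sterol-binding protein of the Niemann-Pick type C2 family, was at 7.42 ± 0.847, 5.16 ± 0.471 and 5.30 ± 0.984 TP10K, with LC4 next at 2.48 ± 0.233, 2.35 ± 0.14 and 0.963 ± 0.126 TP10K. Pkc53E, a protein kinase C gene, was at 2.02 ± 0.602, 7.60 ± 0.549 and 14.6 ± 0.889 TP10K in LPLC1 beside 0.575 ± 0.231, 1.62 ± 0.586 and 2.57 ± 0.857 TP10K in the rest. Tbh, the enzyme that makes octopamine from tyramine, was at 1.22 ± 0.15, 1.24 ± 0.094 and 1.31 ± 0.125 TP10K in LPLC1 while the rest had 0.834 ± 0.123, 0.338 ± 0.147 and 0.164 ± 0.0685 TP10K, and was set apart at 72 and 96 h.

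Most genes for the synaptic release machinery, ion channels and fast transmitter receptors were not called between LPLC1 and the rest. Over all genes 3.18%, 3.42% and 2.94% were called higher and 5.16%, 5.31% and 4.95% lower at the 3 stages. Of 26 vesicle and active zone genes, 3, 2 and 2 were higher and 1, 1 and 0 lower, with medians of 0.002, 0.03 and 0.02 (log2). Frq2, a calcium sensor of the frequenin family, and Sytbeta, a synaptotagmin gene, were the ones higher at all stages, Frq2 with 15.7 ± 0.517, 11.9 ± 1.33 and 5.89 ± 0.816 TP10K in LPLC1 beside 4.61 ± 0.33, 4.57 ± 1.10 and 2.44 ± 0.33 TP10K in the rest. Of 19 potassium channel genes 1, 1 and 1 were higher and 1, 1 and 2 lower, and of 23, 23 and 21 sodium, calcium and other cation channel genes 1, 0 and 2 were higher and none lower. Of 11 acetylcholine receptor genes none was called at 48 and 72 h in this edgeR fit, and at 96 h nAChRalpha6 was higher (24.8 ± 3.75 TP10K in LPLC1 and 9.17 ± 2.99 TP10K in the rest) and mAChR-B lower. Of 15, 16 and 16 GABA, glutamate and histamine receptor genes, 1, 2 and 1 were higher and 2, 2 and 4 lower. GluRIB was higher at 48 h, GABA-B-R3 and KaiR1D at 72 h and GluClalpha at 96 h, while pHCl-1 was lower at 48 and 72 h and GluRIA, GluRIB and GABA-B-R3 were lower at 96 h. Of the same list the metabotropic glutamate receptor gene mGluR was lower at each stage, by -1.04 ± 0.07, -1.75 ± 0.10 and -2.88 ± 0.21 (log2, SE). No innexin gene was higher at any stage, and Inx2 alone was lower, at 48 h.

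Among the low genes without a place in these families, SiaT, CG11317, Ccn and Sulf1 had clear levels in both other types. SiaT, the fly sialyltransferase gene, held 0.434 ± 0.246, 0.775 ± 0.0663 and 0.660 ± 0.176 TP10K in LPLC1, below every cross of the rest (1.61, 3.80 and 1.26 TP10K at the lowest). Ccn, which encodes a matricellular protein, held 0.240 ± 0.0742, 0.266 ± 0.121 and 0.202 ± 0.131 TP10K beside 4.74 ± 0.543, 3.40 ± 0.955 and 4.59 ± 1.43 TP10K in the rest. Both were set apart at all 3 stages. Sulf1, for an extracellular enzyme that trims heparan sulfate, was low against both types at 48 and 72 h, with 0.10 ± 0.0276 TP10K in LPLC1 and 4.22 ± 0.546 TP10K in the rest at 48 h, but at 96 h LC4 had 0.256 ± 0.0973 TP10K beside 0.233 ± 0.0952 in LPLC1. CG11317 differed from the rest by -4.38 ± 0.14, -5.39 ± 0.16 and -5.78 ± 0.25 (log2, SE). The genes set apart 3 times were singled out after their values were seen.

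Class X lay on the LPLC1 side of both LPLC2 and LC4 for many of these genes. The genes were picked because LPLC2 and LC4 both lay away from LPLC1, which favours that side for any other class. No share over all genes was computed, so the counts below do not measure how alike class X and LPLC1 were. The class X sums were small, with 9 to 29 cells per cross. Class X entered the fits only as part of the rest, and the sum of 9 cells was kept there. Of the 109, 165 and 121 higher genes, the mean of class X was beyond that of LPLC2 and of LC4 in the LPLC1 direction for 82, 116 and 85, and it exceeded that of LPLC1 for 34, 55 and 30. For the lower genes the counts were 55 of 109, 58 of 105 and 48 of 84. lncRNA:CR44024 shows this, with 1.81 ± 0.145 TP10K in LPLC1, 1.72 ± 0.221 in class X, 0.00901 ± 0.00613 in LPLC2 and 0.00621 ± 0.00961 TP10K in LC4 at 48 h APF. Class X differed from LPLC1 in br (14.7 ± 7.11 TP10K), tup (0.0551 ± 0.0801 TP10K) and acj6 (0.432 ± 0.425 TP10K) at 48 h.

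The difference between LPLC1 and the rest was then compared between stages in one fit, in which the change was adjusted over 7017 genes. Here the groups compared are libraries of single lanes, so that stage and lane cannot be told apart, but the rest of the same lane was the reference within each. From 48 to 72 h APF the difference grew for 169 genes (2.41%) and fell for 148 (2.11%). From 72 to 96 h it grew for 62 genes (0.884%) and fell for 155 (2.21%). Without DGRP-535, 36 genes grew in the later step. A growth here means that LPLC1 went up relative to the rest, whether LPLC1 itself moved or the rest did.

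From 48 to 72 h the named genes with the largest growth included the surface protein genes DIP-beta and dpr13 and the ligand gene Pvf3. DIP-beta grew by 4.13 ± 0.53 (log2, SE; adjusted p = 1.12e-05, edgeR), as its level went from 0.319 to 1.79 TP10K in LPLC1 and from 3.15 to 0.059 TP10K in LC4. With LPLC2 alone in place of the rest the change was -0.18. dpr13, encoding a Dpr protein, grew by 3.14 ± 0.17 (adjusted p = 8.04e-11). Its LPLC1 crosses held 0.817, 0.887 and 1.70 TP10K (lowest, median, highest) at 48 h and 7.79, 9.07 and 9.36 TP10K at 72 h, while LPLC2 went from 6.82 ± 0.804 to 4.44 ± 0.274 TP10K. LPLC1 thus moved from below all crosses of the rest to above them, but LC4 went from 1.68 to 8.03 TP10K over the same step, and at 72 h the difference of LPLC1 from the rest (0.68, log2) was not called. Pvf3, a ligand of the PDGF and VEGF family, grew by 3.03 ± 0.32 (adjusted p = 1.14e-06), from 3.08 ± 1.44 to 17.4 ± 1.11 TP10K in LPLC1 beside 11.2 ± 0.31 and 11.3 ± 0.94 TP10K in LPLC2. CG30158 and CG45263 grew by 3.82 ± 0.30 (adjusted p = 3.31e-08) and 3.69 ± 0.30 (adjusted p = 3.71e-08). esn, a paralog of the planar polarity gene prickle, grew by 3.23 ± 0.39 (adjusted p = 6.39e-06) although it stayed near 0 in LPLC1, while the rest went from 2.39 to 0.215 TP10K.

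Of the 6 named drops between 48 and 72 h, 4 were of genes set apart above both types at 48 h. TrissinR, a peptide receptor gene, changed by -3.61 ± 0.31 (adjusted p = 5.94e-08), with LPLC1 crosses of 1.25, 1.79 and 2.04 TP10K (lowest, median, highest) at 48 h and at most 0.05 TP10K at 72 h. fred, encoding an immunoglobulin-family relative of Echinoid, changed by -2.95 ± 0.31 (adjusted p = 9.65e-07), from 3.11 ± 0.72 to 0.920 ± 0.0848 TP10K. heph, the fly polypyrimidine tract binding protein, changed by -2.56 ± 0.32 (adjusted p = 7.79e-06), from 5.79 ± 2.05 to 1.5 ± 0.373 TP10K. Octbeta1R, an octopamine receptor gene, changed by -2.12 ± 0.32 (adjusted p = 8.68e-05), from 1.16 ± 0.388 to 0.360 ± 0.0935 TP10K. Cad87A (-2.41 ± 0.33, adjusted p = 2.34e-05) and CG15449 (-2.35 ± 0.42, adjusted p = 0.000478) completed the 6. The level of CG15449 in LPLC2 went from 0.158 to 1.55 TP10K over this step.

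**Figure D4:**
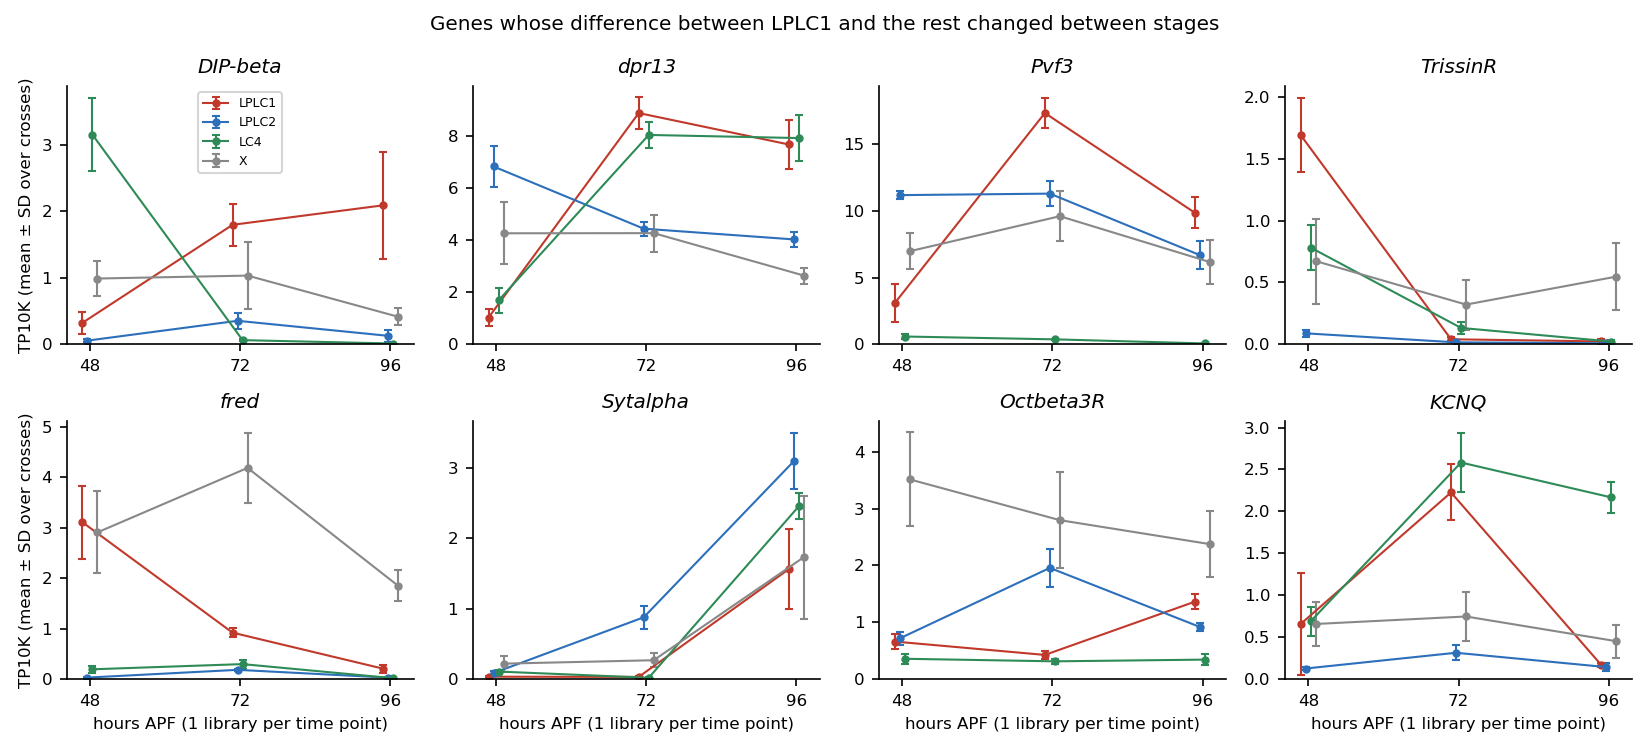
Level (vertical axis, TP10K, linear scale from 0) in LPLC1, LPLC2, LC4 and class X at 48, 72 and 96 h APF (horizontal axis) for 8 genes whose difference between LPLC1 and the rest changed between stages; points are means over crosses, error bars are SDs and lines join the stages. DIP-beta, dpr13 and Pvf3 are higher in LPLC1 at 72 than at 48 h while TrissinR and fred are lower, and from 72 to 96 h Sytalpha and Octbeta3R are higher in LPLC1 while KCNQ is lower.

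From 72 to 96 h APF the named genes whose difference grew included a synaptotagmin and an octopamine receptor. Sytalpha, a synaptotagmin gene, grew by 3.34 ± 0.30 (adjusted p = 9.41e-07). Its LPLC1 crosses held 0.015, 0.024 and 0.0585 TP10K (lowest, median, highest) at 72 h and 0.805, 1.48 and 2.29 TP10K at 96 h, still below every cross of the rest (2.33 TP10K at the lowest). LC4 gained it over the same step, from 0.0189 to 2.46 TP10K, whereas LPLC2 already had 0.879 TP10K at 72 h. Octbeta3R, an octopamine receptor gene, grew by 2.15 ± 0.25 (adjusted p = 1.1e-05), from 0.425 ± 0.0685 to 1.36 ± 0.137 TP10K in LPLC1. CG3009 grew by 2.04 ± 0.21 (adjusted p = 4.94e-06), CCHa2-R by 1.78 ± 0.33 (adjusted p = 0.0014), CG34377 by 1.77 ± 0.26 (adjusted p = 0.000159) and drl by 2.30 ± 0.38 (adjusted p = 0.000545). For CCHa2-R the level in LPLC1 itself was 1.01 and 1.13 TP10K at the 2 stages.

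The named drops from 72 to 96 h included a potassium channel, a beat gene and peptide genes. KCNQ, a voltage-gated potassium channel gene, changed by -3.25 ± 0.71 (adjusted p = 0.00611), with LPLC1 crosses of 1.92, 2.16 and 2.83 TP10K (lowest, median, highest) at 72 h and 0.141, 0.166 and 0.201 TP10K at 96 h, while LC4 kept 2.58 and 2.17 TP10K. LPLC2 held 0.143 ± 0.0436 TP10K at 96 h. beat-Ia changed by -3.01 ± 0.37 (adjusted p = 2.22e-05), from 1.95 ± 0.319 to 0.217 ± 0.0672 TP10K, bma by -2.97 ± 0.40 (adjusted p = 8.49e-05) and CG8861 by -2.55 ± 0.62 (adjusted p = 0.0132). The peptide genes Nplp1 and sNPF changed by -4.96 ± 0.54 (adjusted p = 7.8e-06) and -4.71 ± 0.82 (adjusted p = 0.000905). Without class X their changes were -1.5 (adjusted p = 0.323) and -0.96 (adjusted p = 0.581), and class X held 12.6 TP10K of sNPF at 96 h. That of beat-Ia was -1.87 without class X (adjusted p = 0.0151, edgeR). Without class X the number of drops in this step was 76 in place of 155.

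Within LPLC1, a few genes differed among cells far more than counting would give. Cells were thinned to 10000 UMIs each, which left 635, 563 and 189 LPLC1 cells. The Fano factor is the variance of the thinned UMIs within crosses over their mean, 1 for pure counting. It was taken for the 2401, 2237 and 2404 genes with a mean of at least 0.5 UMIs, mitochondrial and roX genes left out. Its median was 1.14, 1.16 and 1.28. Dh31 had 41.7, 27.4 and 22.2, and DIP-kappa 15.6, 16.0 and 14.1, both among the top 20 genes at all stages together with lncRNA:noe, lncRNA:Hsromega, pros and lncRNA:CR34335. In LPLC2, Dh31 had 2.44, 14.7 and 22.1 and DIP-kappa 1.32, 1.14 and 1.22, so the spread of Dh31 was shared with LPLC2 at 96 h. lncRNA:noe was uneven in both types, with 55.5, 71.1 and 89.0 in LPLC1 and 65.3, 59.5 and 82.6 in LPLC2. In the cells of all crosses together, Dh31 had at least 5 UMIs in 20%, 49.6% and 27.5% of LPLC1 cells and none in 66.0%, 38.4% and 61.9%. For DIP-kappa the shares with at least 5 UMIs were 19.8%, 22.4% and 21.7%, and those with none were 55.6%, 58.4% and 66.1%. These 2 genes were thus high in some LPLC1 cells and unseen in others.

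The same thinned cells show how widely the LPLC1 genes were spread over the type. dati had a UMI in 60.3% of LPLC1 cells at 48 h (exact 95% interval 56.4% to 64.1%, counting error only; 64.6% before thinning), 57.4% at 72 h and 59.3% at 96 h, beside 1.21%, 2.59% and 6.87% of LPLC2 cells and 1.45%, 2.22% and 1.08% of LC4 cells. At least 5 UMIs of dati were found in 31.5%, 22.0% and 27% of LPLC1 cells and in no LPLC2 or LC4 cell. eys was seen in nearly all LPLC1 cells, with no UMI in 2.68%, 2.31% and 7.94%. 5-HT1A had a UMI in 74.5% of LPLC1 cells at 48 h (interval 70.9% to 77.8%), 97.5% at 72 h (95.9% to 98.6%) and 88.4% at 96 h (82.9% to 92.6%). tup had one in 80.9%, 64.1% and 84.7% of LPLC1 cells, 31.9%, 30.2% and 39.2% of LC4 cells and at most 1.18% of LPLC2 cells. br had a UMI in 100% of LPLC1 cells at each stage, and also in 16.0%, 15.5% and 7.38% of LPLC2 cells, a type whose summed level was near 0. Before thinning, the median depth of LPLC1 cells was 21282.5, 23182.5 and 17687.5 UMIs, that of LPLC2 cells 18114, 20330 and 16775, and that of LC4 cells 23658, 29763.5 and 21840.

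**Figure D5:**
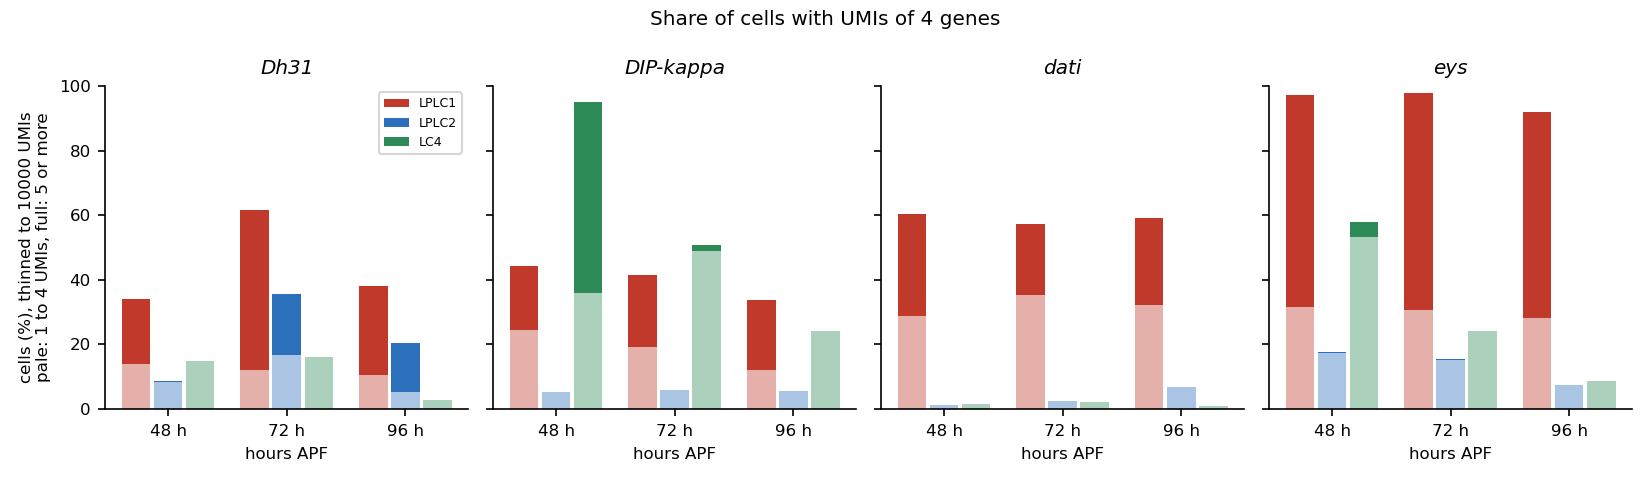
Share of cells (vertical axis, percent) with 1 to 4 UMIs (pale part of the bar) and with 5 or more (full colour) of Dh31, DIP-kappa, dati and eys after thinning each cell to 10000 UMIs, in LPLC1, LPLC2 and LC4 at 48, 72 and 96 h APF (horizontal axis). In LPLC1 the bars of Dh31, DIP-kappa and dati leave many cells without a UMI, while eys has no UMI in only 2.68%, 2.31% and 7.94% of the cells.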

How the data were processed

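Single-cell RNA-seq libraries of FACS-sorted neurons (10x Genomics) were read with Cell Ranger and Seurat 5.0.1, which the submitters' processing notes name. The authors assigned cells to DGRP strains by genotype, removed doublets called across strains, and deposited UMI counts per gene and cell for 17824 genes. The authors also deposited a percent of mitochondrial UMIs per cell, used here only for a filter. Doublets of the same strain but of different types would not be seen by that step, and no other doublet caller was run. The stated limits of 10000 to 50000 UMIs and 10% mitochondrial UMIs are not met by all annotated cells: 635, 562 and 189 of the 690, 646 and 218 LPLC1 cells meet them at 48, 72 and 96 h APF. All annotated cells were used, and the stated limits were run as an alternative.

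Counts were summed per cross, type and stage. Sums of fewer than 10 cells were left out of fits, where the rest was judged as a whole after pooling. Genes were filtered with filterByExpr, scaled by TMM and tested with edgeR 4.0.16 in R 4.3.3 by the quasi-likelihood F test with strain as a block, and p-values were adjusted after Benjamini and Hochberg across every gene of a fit. The SE was the fold divided by the root of F. The strain number pairs the sums, since LPLC1 and the rest of a strain share the DGRP chromosome and the collection window. The driver lines were crossed to each strain separately, so this pairing is by strain and not by cross. Their deviations from the group means correlated above 0.1 in 14 of 18 pairs. The highest correlation with another strain was larger for DGRP-799 at 48 h (0.217 beside 0.081). The same held at 96 h for DGRP-799 (0.099 beside 0.089) and DGRP-805 (0.126 beside 0.032). In every other pair the same-strain value was the larger. The stage test took the change of the difference between LPLC1 and the rest, with strain within stage as the block. The code was tested on simulated data. Alternatives were DESeq2 1.42.0, other scaling and filters, no block, leaving out each cross, other compositions of the rest and thinned cells.

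The members and gene lists were chosen with earlier results of these data known. Of 708 list genes 688 were in the tables. Named were the 11 annotation factors and 5 genes known to vary within LPLC1. Added per stage were the 10 highest and 6 lowest genes of at least 1 TP10K set apart, in the same direction in all crosses. Each list gave up to 5 called members at 48 h and those called only later, and each step gave 6 called genes per direction. These rules gave 185 genes in all, and some genes set apart at all stages were named besides. Intervals on shares of cells are exact 95% binomial intervals. Gene positions are from the Release 6 annotation. No sequence was used here.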

Additional observations from a re-analysis of the deposited data

Results flagged for a closer look

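In 4 of 91 groups of 6 LPLC1 crosses that were examined, 1 cross lay apart from the others by Dixon's ratio, a criterion that chance meets in about 1 of 20 groups. lncRNA:CR44024 was at 2.16 TP10K in the DGRP-320 cross at 72 h APF, where the other crosses held 1.76 to 1.89 TP10K. The other 3 were all the DGRP-805 cross at 96 h APF, a sum of 14 cells and 253805 UMIs. There the serotonin receptor gene 5-HT1A was at 5.0 TP10K (6.31 to 6.79 in the others), the peptide receptor gene CCHa2-R at 1.81 TP10K (0.846 to 1.20) and the POU-domain gene acj6 at 6.46 TP10K (7.47 to 7.85).

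For 24 named genes the difference between LPLC1 and the rest changed between stages by the interaction test in edgeR. From 48 to 72 h APF it grew by 4.13 (log2) for DIP-beta, 3.82 for CG30158, 3.69 for CG45263, 3.23 for esn, 3.14 for dpr13 and 3.03 for Pvf3. Over the same step the change was -3.61 for TrissinR, -2.95 for fred, -2.56 for heph, -2.41 for Cad87A, -2.35 for CG15449 and -2.12 for Octbeta1R. From 72 to 96 h APF the difference grew by 3.34 for Sytalpha, 2.30 for drl, 2.15 for Octbeta3R, 2.04 for CG3009, 1.78 for CCHa2-R and 1.77 for CG34377. Over that step the change was -4.96 for Nplp1, -4.71 for sNPF, -3.25 for KCNQ, -3.01 for beat-Ia, -2.97 for bma and -2.55 for CG8861. Stage and lane cannot be told apart in these changes.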

How the results depend on the processing

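Of the counts of called genes recomputed under the alternatives, 335 stayed within 1.5 times the reported count and 13 did not. Without the filter on low counts, 872, 972 and 757 genes were called against the rest at 48, 72 and 96 h APF, of which 585, 642 and 562 were lower in LPLC1, since more genes were tested. With LPLC2 alone in place of the rest, the step from 48 to 72 h gave 497 genes, of which 274 fell, and 121 grew from 72 to 96 h. Without class X the latter step gave 141 genes, of which 65 grew and 76 fell. Without the strain block as pairing it gave 145 genes, of which 53 grew and 92 fell. Without the strain block, 201 higher and 345 lower genes were called against the rest at 48 h, 217 and 355 at 72 h and 158 and 263 at 96 h. When each cross was left out in turn, 544 to 571, 550 to 591 and 416 to 460 genes were called against the rest at the 3 stages, 253 to 335 changed from 48 to 72 h and 160 to 218 from 72 to 96 h, of which 36 to 60 grew, the lowest without DGRP-535.

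Of the values of single genes, 1686 kept direction and call, 26 lost the call, 6 gained it and 10 changed sign. With the types of the rest weighted equally, the difference at 48 h was 0.33 (log2) for Sox102F, 0.075 for acj6 and -0.71 for dpr3, and 0.35 for acj6 at 72 h. At 96 h acj6 was at -0.032 without the filter, -0.26 without class X, -0.016 in thinned cells and -0.0052 to 0.0956 when each cross was left out, lowest without DGRP-399 and highest without DGRP-805, and dpr3 at 1.40 without class X. DIP-beta changed by -0.18 from 48 to 72 h with LPLC2 alone. For these changes of sign the cause was not tested. At 96 h APF the depth of 253805 UMIs in the smallest sum limits what could be seen of low genes.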
